A study of Homo sapiens with 6 samples.

Results

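Carbonic anhydrase 2 and 7 genes of bicarbonate and lactate transport were followed through 6 ribosome profiling libraries of HEK293T cells. HEK293T is an established line from human embryonic kidney in which SV40 large T antigen is expressed. The 8 genes were CA2, SLC4A2, SLC4A7, SLC16A1, SLC16A3, BSG, NHERF1 and NHERF2, out of 60420 gene identifiers compared. They were picked by name, with their values in these libraries already known, so every value below is a description and none is a test. NHERF1 and NHERF2 were formerly named SLC9A3R1 and SLC9A3R2. Each gene was found once in the table.

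The cells had received a PRMT1 inhibitor, a PRMT4 inhibitor or DMSO, the vehicle. PRMT1 and PRMT4, also called CARM1, are protein arginine methyltransferases. No compound, dose or time is named in the labels. Each treatment gave 1 input library and 1 footprint library, which was made from RNA fragments that ribosomes shielded from RNase I. The labels describe the inputs in the same terms and give no separate preparation for input RNA. Every group is a single library, so no error between replicates can be given and each difference describes these libraries alone.

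Cells that burn much glucose make acid, and a small set of proteins moves it. Carbonic anhydrases interconvert carbon dioxide and bicarbonate, SLC4 proteins carry bicarbonate across the membrane, and SLC16 monocarboxylate transporters (MCTs) export lactate together with a proton. MCT1 and MCT4 reach the cell surface with the help of basigin, the product of BSG, and the NHERF scaffolds tether transporters and exchangers to ezrin and the cortical actin under the membrane.

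The value in the table was TPM, a relative abundance that is corrected for gene length, so that levels can be compared between genes. Ratios were taken as log2 of TPM plus a pseudocount of 1, and each was centred on its median over the 9040 genes with a mean of at least 5 TPM over the 6 libraries, of which 8117 were protein-coding. Before centring, that median was -0.16 for input and -0.15 for footprints under the PRMT1 inhibitor label, and -0.37 and -0.01 under the PRMT4 inhibitor label. Of the 8 genes, 6 passed the filter. SLC4A7 averaged 4.25 TPM, just below it, and SLC16A3 averaged 0.05 TPM. A gene is counted as higher or lower when it differed at least 1.5-fold after centring.

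Input and footprints ordered the inhibitor labels in opposite ways. Across the 9040 tested genes, the log2 ratio of the PRMT1 to the PRMT4 inhibitor label in input was negatively correlated with the same ratio in footprints (Pearson r = -0.31, Spearman rho = -0.40, over genes, which are not independent replicates). The 2 ratios come from 4 separate libraries. The correlation was not recomputed with GC content and length adjusted for. With that adjustment, 2.31% of genes differed 1.5-fold between the inhibitor labels in input, against 8.15% as reported. In footprints 7.52% did, against 11.2%. Whether GC content, length or the protein-coding shares given below bear on the correlation was not tested. An exchange of the inhibitor labels in 1 of the fractions is also possible and was not tested. It would change which inhibitor each label-specific value belongs to. Libraries are therefore named by their labels, and footprint-to-input ratios are given with either inhibitor input. PRMT1 itself stood at 90.7, 86.1 and 136 TPM in the inputs labelled PRMT1 inhibitor, PRMT4 inhibitor and DMSO, and CARM1 at 22.8, 23.6 and 32.0 TPM. An inhibitor acts on the enzyme, so a message level cannot tell which inhibitor was given. Protein-coding genes held 38.7%, 33.4% and 45.7% of TPM in the same inputs and 62.3%, 70.6% and 74.3% in the footprints. Among genes usually detected in the line, VIM had 104 to 208 TPM and LIN28B 2.19 to 17.6 TPM, while NEFL, NEFM and PAX2 did not exceed 7.0 TPM. The leukocyte, liver, erythroid and melanocyte markers PTPRC, ALB, HBG1 and TYR were at or below 0.03 TPM.

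The bases around the annotated start codon are shown to describe how these messages differ where translation begins; the footprint values are totals per gene and do not measure initiation there. The bases were read along the GENCODE release 29 transcript on GRCh38 for 5 of the 6 genes past the filter, and CA2 is not shown. Capitals mark the third base before the ATG through the first base after it, the core of the Kozak context.
SLC4A2: taagattcgGCCATGA
SLC16A1: tctacacttAAAATGC
BSG: ggaataggaATCATGG
NHERF1: tcgcagggcGAGATGA
NHERF2: gcagcgggcGCCATGG

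The start codons lie at chr7:151061988-151061990 (plus strand) for SLC4A2, chr1:112929306-112929308 (minus strand) for SLC16A1, chr19:572635-572637 (plus strand) for BSG, chr17:74748847-74748849 (plus strand) for NHERF1 and chr16:2027006-2027008 (plus strand) for NHERF2. The match sought was ANNATGG or GNNATGG, on the coding strand only. BSG and NHERF2 had it. SLC4A2, SLC16A1 and NHERF1 had the A or G at the third base before the ATG, without the G after it. Of 18445 protein-coding genes with an annotated ATG, 42.6% had the full match and 42.4% had the A or G before it alone, so neither form is unusual. The table has 1 value per gene, so the transcript in use is not known from it.

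CA2 (ENSG00000104267.9_2), the abundant cytosolic carbonic anhydrase, was lower in every inhibitor library than in the DMSO library of the same kind. Its input level was 206 TPM under the PRMT1 inhibitor label and 97.1 TPM under the PRMT4 inhibitor label, against 350 TPM in DMSO. Its footprint level was 195 TPM under the PRMT1 inhibitor label and 429 TPM under the PRMT4 inhibitor label, against 620 TPM in DMSO. The low library thus differed with the fraction: PRMT4 inhibitor label in input and PRMT1 inhibitor label in footprints. In such bulk libraries, fewer cells with the message and less of it per cell cannot be told apart. In percent of DMSO, the PRMT1-labelled libraries held 58.9% in input and 31.5% in footprints, and the PRMT4-labelled libraries 27.7% and 69.1%.

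Relative to the median tested gene, the CA2 log2 ratio to DMSO was -0.60 in the PRMT1-labelled input, -1.48 in the PRMT4-labelled input, -1.52 in the PRMT1-labelled footprints and -0.53 in the PRMT4-labelled footprints. The first of these lay at the 1.5-fold bound and came to -0.55 with genes of at least 20 TPM alone and -0.52 on TPM rescaled to protein-coding genes without centring. In the order of all 9040 tested genes, CA2 was the 13th lowest in the PRMT4-labelled input and the 7th lowest in the PRMT1-labelled footprints. It was the 74th lowest in the PRMT1-labelled input and the 238th lowest in the PRMT4-labelled footprints. CA2 was therefore far down the order in all 4, and furthest in 1 library of each inhibitor label. The inhibitor ratios within input, and within footprints, share 1 DMSO library each. Averaged over both inhibitor labels, a contrast that does not depend on which label is which, the CA2 ratio was -1.04 in input and -1.03 in footprints, the 13th and 11th lowest of the tested genes.

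**Figure D1:**
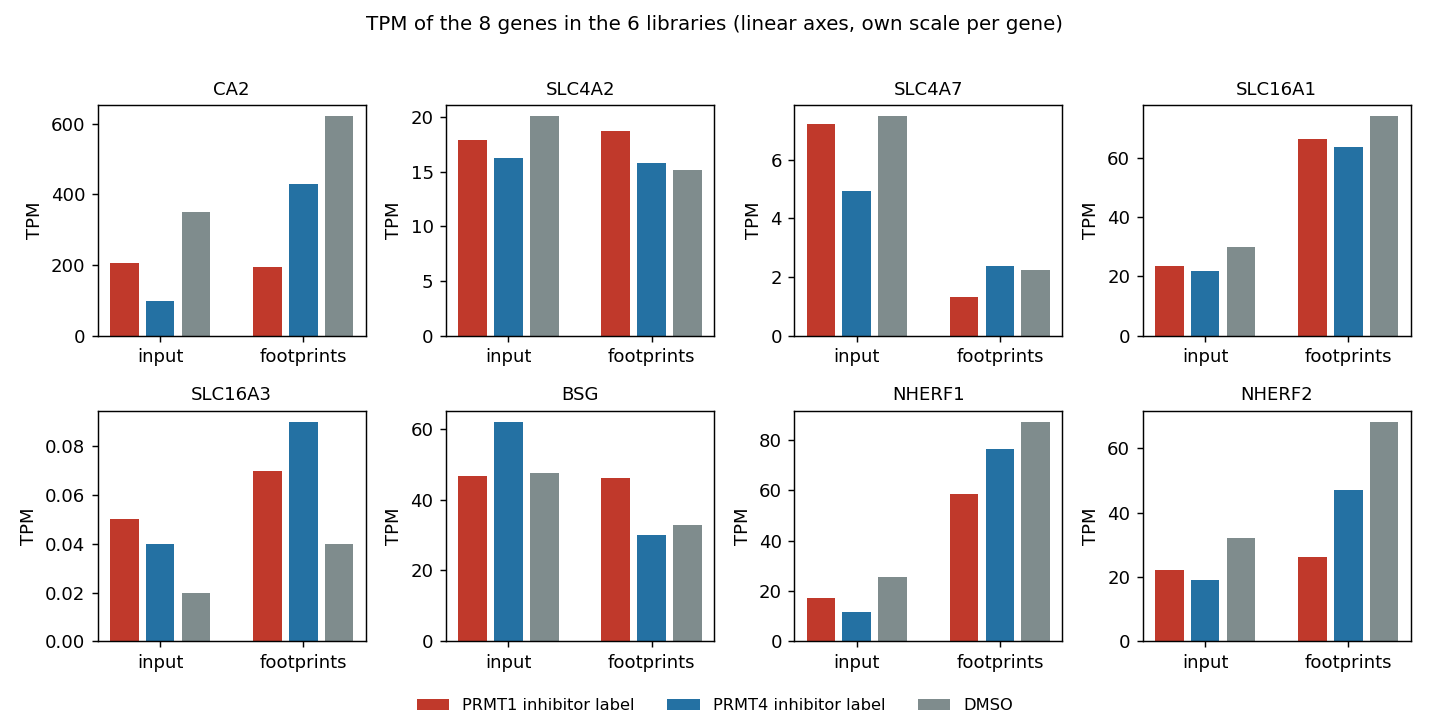
TPM of the 8 genes (linear vertical axes, one scale per gene) in the input and footprint libraries, with 1 bar per library for the PRMT1 inhibitor label, the PRMT4 inhibitor label and DMSO. CA2, SLC16A1, NHERF1 and NHERF2 are lower than DMSO in all 4 inhibitor libraries, while BSG is highest in the PRMT4-labelled input (61.9 TPM) and the PRMT1-labelled footprints (46.1 TPM).

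CA2 supplied most of the carbonic anhydrase message. Its share of the summed TPM of 15 family members was 89.4% and 80.2% in the inputs labelled PRMT1 and PRMT4 inhibitor and 91.8% in the DMSO input, and 79.1%, 88.5% and 89.5% in the footprints labelled PRMT1 inhibitor, PRMT4 inhibitor and DMSO. Only 2 relatives passed the filter. CA8, a carbonic anhydrase-related protein without catalytic activity, had 4.58 and 2.45 TPM in the inputs labelled PRMT1 and PRMT4 inhibitor, against 8.73 TPM in DMSO. CA8 had 6.02 and 11.9 TPM in the footprints labelled PRMT1 and PRMT4 inhibitor, against 20.4 TPM in DMSO. Its centred ratios were -0.64 and -1.46 in PRMT1-labelled input and footprints and -1.13 and -0.72 in PRMT4-labelled input and footprints, so the lowest library changed with the fraction as it did for CA2. The input ratios of CA8 rest on low values, 2.45 to 8.73 TPM in single libraries, where the pseudocount of 1 weighs more. CA11, likewise without catalytic activity, had ratios of 0.07 and -0.03 in PRMT1-labelled input and footprints and 0.60 and -0.23 in PRMT4-labelled input and footprints. CA9, the hypoxia-induced membrane form, did not exceed 0.02 TPM in any library.

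NHERF1 (ENSG00000109062.11_3) and NHERF2 (ENSG00000065054.13_3), paralogous PDZ scaffolds, were also below DMSO in all 4 inhibitor libraries. NHERF2 had 22.02 and 19.2 TPM in the inputs labelled PRMT1 and PRMT4 inhibitor, against 32.0 TPM in DMSO. NHERF2 stood at 26.3 and 47.1 TPM in the footprints labelled PRMT1 and PRMT4 inhibitor, against 68.2 TPM in DMSO. The PRMT1-labelled footprints were the low value, with a centred ratio of -1.20, the 21st lowest tested gene, beside -0.52 in the PRMT4-labelled footprints and -0.36 and -0.34 in the inputs labelled PRMT1 and PRMT4 inhibitor.

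NHERF1 had 17.1 and 11.8 TPM in the same inputs, against 25.6 TPM in DMSO, and 58.55 and 76.4 TPM in the footprints labelled PRMT1 and PRMT4 inhibitor, against 87.0 TPM in DMSO. Its ratios were -0.39 and -0.42 in PRMT1-labelled input and footprints and -0.69 and -0.18 in PRMT4-labelled input and footprints. The paralogs therefore had their lowest ratio in different libraries, NHERF1 in PRMT4-labelled input and NHERF2 in PRMT1-labelled footprints. The NHERF1 ratio of the PRMT4-labelled input came to -0.58 with a pseudocount of 5, just inside the bound. SLC9A3, the sodium/proton exchanger NHE3 for which the scaffolds were named, was listed at 0 in every library.

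BSG (ENSG00000172270.18_2), the chaperone subunit of MCT1 and MCT4, was higher than the median gene in 3 of the 4 pairs. Its input held 46.7 and 61.9 TPM under the PRMT1 and PRMT4 inhibitor labels, against 47.5 TPM in DMSO. It held 46.1 and 30.0 TPM in the footprints labelled PRMT1 and PRMT4 inhibitor, against 32.8 TPM in DMSO. The high libraries were the PRMT4-labelled input and the PRMT1-labelled footprints. The centred ratios were 0.13 and 0.63 in PRMT1-labelled input and footprints and 0.74 and -0.12 in PRMT4-labelled input and footprints. Without centring, those of the PRMT4-labelled input and the PRMT1-labelled footprints came to 0.37 and 0.48, under 1.5-fold. With a pseudocount of 5, or a filter at a mean of 1 TPM, the footprint ratio came to 0.55 or 0.56.

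SLC16A1 (ENSG00000155380.11_3), which encodes MCT1, stayed near the median gene. It had 23.4 and 21.7 TPM in the inputs labelled PRMT1 and PRMT4 inhibitor, against 30.0 TPM in DMSO, and 66.4 and 63.6 TPM in the footprints labelled PRMT1 and PRMT4 inhibitor, against 74.0 TPM in DMSO. Its centred ratios ran from -0.21 to -0.01. SLC16A1 lay at or above 17.8% and 39.2% of tested genes in the inputs labelled PRMT1 and PRMT4 inhibitor. In the footprints with these labels it lay at or above 48.8% and 19.2%. SLC16A1 held 65.2% to 83.3% of the summed TPM of the 14 SLC16 genes across the libraries. SLC16A3 (ENSG00000141526.16_3), which encodes the hypoxia-responsive MCT4, did not exceed 0.09 TPM in any library, too low to compare.

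SLC4A2 (ENSG00000164889.13_3), the chloride/bicarbonate exchanger AE2, had 17.9 and 16.2 TPM in the inputs labelled PRMT1 and PRMT4 inhibitor, against 20.1 TPM in DMSO. It held 18.75 and 15.8 TPM in the footprints labelled PRMT1 and PRMT4 inhibitor, against 15.1 TPM in DMSO. Its centred ratios were 0.00 and 0.44 in PRMT1-labelled input and footprints and 0.08 and 0.06 in PRMT4-labelled input and footprints. SLC4A7 (ENSG00000033867.16_3), the sodium-bicarbonate cotransporter NBCn1, had 7.2 and 4.93 TPM in these inputs, against 7.47 TPM in DMSO, and 1.32 and 2.37 TPM in the footprints labelled PRMT1 and PRMT4 inhibitor, against 2.23 TPM in DMSO. At these levels no ratio was taken for SLC4A7.

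**Figure D2:**
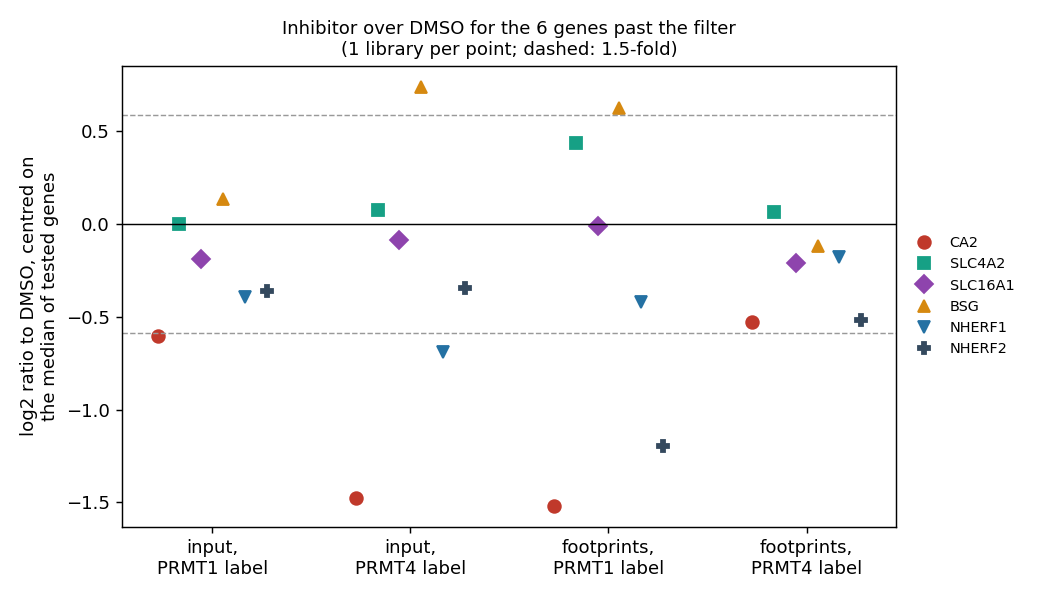
Centred log2 ratio of each inhibitor library to the DMSO library of the same kind (vertical axis) for the 6 genes past the filter, with 1 point per gene and library pair and dashed lines at 1.5-fold. CA2 is the lowest of the 6 in every pair, with -1.48 in PRMT4-labelled input and -1.52 in PRMT1-labelled footprints, and BSG lies above 0.6 in the PRMT4-labelled input and the PRMT1-labelled footprints.

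Counted together, 1 of the 6 genes, CA2, was at least 1.5-fold lower in the PRMT1-labelled input, where 0.918% of all tested genes were, and none was higher, beside 1.91%. In the PRMT4-labelled input, CA2 and NHERF1 were lower, 2 of 6, beside 3.11% of tested genes, and BSG was higher, 1 of 6, beside 5.85%. In the PRMT1-labelled footprints, CA2 and NHERF2 were lower, beside 4.65% of tested genes, and BSG was higher, beside 9.48%. In the PRMT4-labelled footprints none of the 6 was lower or higher, beside 1.83% and 3.09% of tested genes. SLC4A2 and SLC16A1 thus passed the bound in no pair. For the mean of both inhibitor labels, CA2 was lower in input, beside 0.785%, and CA2 and NHERF2 were lower in footprints, beside 1.75%. None was higher in either mean, beside 2.78% in input and 4.55% in footprints. The genes were chosen with these values in view, so nothing is read from the counts. The median of the 6 ratios lay between -0.27 and -0.19 in the 4 library pairs, with the median of all tested genes at 0 by construction.

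The footprint-to-input ratio, an index of ribosome loading, was 0.95 for CA2 under the PRMT1 inhibitor label, 4.42 under the PRMT4 inhibitor label and 1.77 in DMSO. With the inhibitor inputs exchanged, it was 2.01 for the PRMT1-labelled footprints and 2.08 for the PRMT4-labelled footprints, both close to DMSO. On the centred log2 scale against DMSO, the CA2 values were -0.92 and 0.94 with the input of the same label, and -0.06 and 0.07 with the input of the other inhibitor label. The size of the CA2 difference in loading therefore rested on which input was paired with which footprints.

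NHERF2 differed from CA2 in this. Its ratio was 1.19 for the PRMT1-labelled footprints over the input of the same label and 1.37 over the PRMT4-labelled input, against 2.13 in DMSO. The centred values were -0.84 and -0.87, so they changed little with the pairing. For the PRMT4-labelled footprints the NHERF2 ratio was 2.45 over the input of the same label and 2.14 over the PRMT1-labelled input, with centred values of -0.19 and -0.17. Both linear ratios lay above the 2.13 of DMSO, and the centred value of -0.19 came to 0.18 without centring, 0.15 with no filter and 0.07 with GC content and length adjusted for, so no direction is given for it.

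BSG had 0.99 under the PRMT1 inhibitor label, 0.48 under the PRMT4 inhibitor label and 0.69 in DMSO. For PRMT1- and PRMT4-labelled footprints its centred values against DMSO were 0.49 and -0.87 over the input of the same label, and -0.13 and -0.26 over that of the other, so the sign under the PRMT1 inhibitor label turned. The centred value of -0.87 came to -0.50 without centring, which ends the 1.5-fold call. NHERF1 had the highest footprint-to-input ratio of the 6 genes in every pairing. It was 3.42 and 6.49 under the PRMT1 and PRMT4 inhibitor labels, against 3.40 in DMSO. Coding bases make up 1077 of 1969 in the NHERF1 transcript and 1503 of 4374 in that of SLC16A1. The ratio was not corrected for this share, so the order between genes need not be that of ribosome loading. With the inputs exchanged, NHERF1 had 4.97 for the PRMT1-labelled and 4.47 for the PRMT4-labelled footprints. Its centred values for PRMT1- and PRMT4-labelled footprints were -0.03 and 0.50 over the input of the same label and 0.26 and 0.21 over that of the other, so the sign for the PRMT1-labelled footprints turned. The value of 0.50 came to 0.87 without centring. SLC16A1 ran from 2.47 in DMSO to 3.06, and SLC4A2 from 0.75 in DMSO to 1.16, each over all 5 pairings. In counts, CA2 and NHERF2 were at least 1.5-fold lower in loading under the PRMT1 inhibitor label, beside 3.81% of tested genes, and none was higher, beside 8.45%. Under the PRMT4 inhibitor label CA2 was higher, beside 4.7%, and BSG lower, beside 8.22%.

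**Figure D3:**
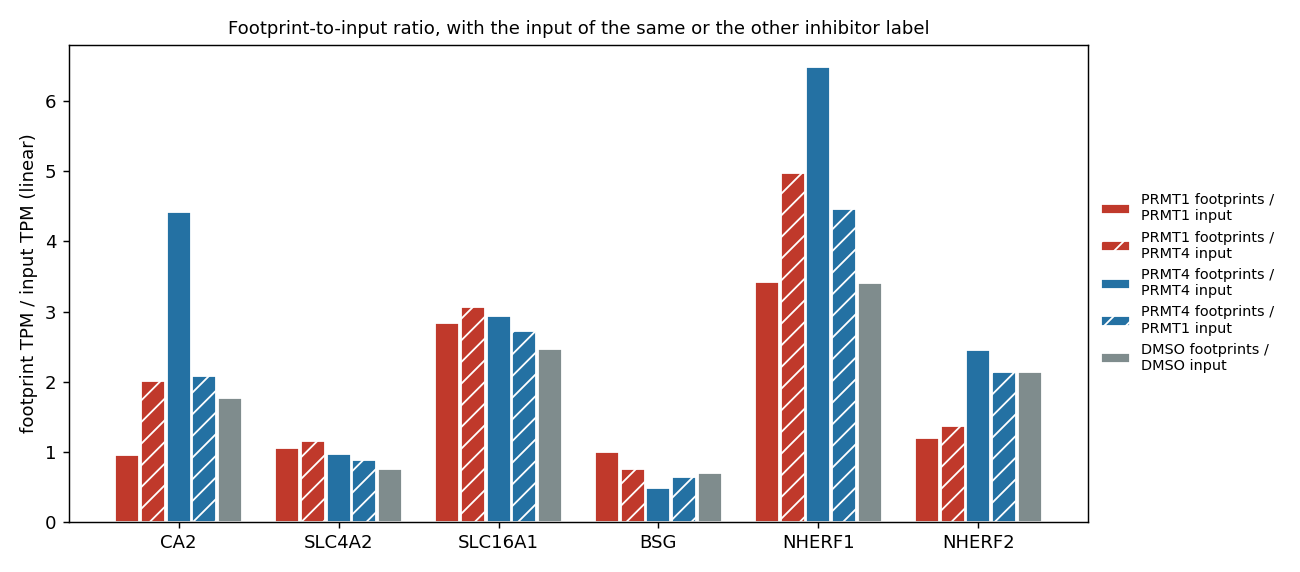
Footprint TPM divided by input TPM (linear axis from 0) for the 6 genes past the filter, with solid bars for the input of the same label, hatched bars for the input of the other inhibitor label, and DMSO in grey. For CA2 the solid bars stand at 0.95 and 4.42 and the hatched bars at 2.01 and 2.08, near the 1.77 of DMSO, while for NHERF2 the PRMT1-labelled footprints stay at 1.19 and 1.37 against 2.13 in DMSO.

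Set against each other, the inhibitor labels differed most for CA2 and BSG. The centred log2 ratio of the PRMT1 to the PRMT4 inhibitor label was 0.89 for CA2 in input and -0.98 in footprints. For BSG it was -0.59 in input and 0.75 in footprints. CA2 was 1 of the 4.02% of tested genes at least 1.5-fold higher in that input contrast and 1 of the 2.69% lower in footprints, and BSG was 1 of the 4.14% lower and the 8.52% higher. NHERF2 had 0.00 in input and -0.67 in footprints, and NHERF1 0.31 and -0.23. SLC4A2 had -0.06 and 0.38, and SLC16A1 -0.09 and 0.21. The BSG input value came to -0.40 without centring and -0.37 with GC content and length adjusted for.

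The transcripts differ in make-up. By the principal GENCODE transcript, GC content was 67.4% for NHERF2, at or above 98.9% of tested genes, and 61.3% to 62.7% for SLC4A2, NHERF1, SLC16A3 and BSG. It was 45.0% for CA2, 43.5% for SLC16A1 and 35.5% for SLC4A7, with a median of 48.8% over tested genes. NHERF2, low in PRMT1-labelled footprints, and BSG, high there, both had high GC content. Whether GC content or length is the source of the ratio of any single gene was not tested. With both GC content and length adjusted for, an alternative added with the data in view, CA2 had -0.62 and -1.35 in the inputs labelled PRMT1 and PRMT4 inhibitor and -1.45 and -0.55 in the footprints labelled PRMT1 and PRMT4 inhibitor. On that scale NHERF2 had -1.18 in the PRMT1-labelled footprints and BSG 0.66. Of all genes so adjusted, 10.7% differed 1.5-fold in these footprints, against 14.1% as reported. In the PRMT4-labelled input 3.87% did, against 8.96% as reported, and in the PRMT1-labelled input 0.618%, against 2.83%. In the PRMT4-labelled footprints 2.57% did, against 4.91%. Coding lengths ran from 783 bases for CA2 to 3726 for SLC4A2.

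The genes whose profile over the 6 libraries lay closest to that of CA2 were AMOT, H1-3, LDHA, CSRP2 and HSPA4, out of 3606 protein-coding genes with a mean of at least 20 TPM. The measure was the Euclidean distance of log2 values centred within input and within footprints, which was 0.32 for AMOT and 0.69 for HSPA4. AMOT, the junction scaffold angiomotin, had centred ratios of -0.49 and -1.17 in the inputs labelled PRMT1 and PRMT4 inhibitor and -1.22 and -0.52 in the footprints labelled PRMT1 and PRMT4 inhibitor. H1-3, a linker histone whose reads can be shared with its gene family, had -0.36 and -1.07 in PRMT1-labelled input and footprints and -1.37 and -0.28 in PRMT4-labelled input and footprints. CSRP2 is a LIM-domain protein and HSPA4 an exchange factor of the Hsp70 chaperones. Among the other genes followed here, NHERF2 was the 53rd closest at 0.88, NHERF1 the 116th at 0.98, SLC16A1 the 2269th at 1.51 and BSG the 3581st at 2.27.

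LDHA, the dehydrogenase that makes the lactate exported by MCTs, was the closest to CA2 among the pathway genes with a mean of at least 20 TPM. It had 251 and 144 TPM in the inputs labelled PRMT1 and PRMT4 inhibitor, against 417 TPM in DMSO. It held 485 and 676 TPM in the footprints labelled PRMT1 and PRMT4 inhibitor, against 1117 TPM in DMSO. LDHB, the other form, had centred ratios of -0.12 and -0.50 in PRMT1-labelled input and footprints, where LDHA had -0.57 and -1.06. In PRMT4-labelled input and footprints LDHB had -0.43 and -0.19 and LDHA -1.16 and -0.72. LDHA was thus the lower of the pair in all 4.

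The wider pathway was read from 8 lists of 92 genes in all, 34 of which passed the filter. Of 10 SLC4 genes only SLC4A2 passed, and of 14 SLC16 genes SLC16A1 and the orphan transporter SLC16A14, whose ratios ran from -0.37 to 0.07. Of 13 sodium/proton exchanger genes and cofactors, CHP1, the cofactor of NHE1, and SLC9B2 passed, with ratios from -0.20 to 0.16. None of these 5 genes differed 1.5-fold in any of the 4 library pairs, beside 2.83% to 14.1% of tested genes. With so few genes this does not set them apart from the background. Of the MCT ancillary subunits, neuroplastin, NPTN, stood at 0.24 and 0.45 in the inputs labelled PRMT1 and PRMT4 inhibitor and 0.09 and 0.19 in the footprints labelled PRMT1 and PRMT4 inhibitor. The ERM family and its relative merlin, the binding partners of the NHERF scaffolds, did not differ 1.5-fold in any pair, beside the same shares. The genes are again too few for this to set them apart. EZR, MSN, RDX and NF2 ran from -0.43 to 0.23, and MSN was the highest of this list on average. In the PRMT1-labelled footprints these 4 lay between -0.11 and 0.05, against -1.20 for NHERF2.

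The vacuolar proton pump had 16 of 25 genes past the filter. Its catalytic subunit, ATP6V1A, had the lowest ratios on average, at -0.18 and -0.53 in the inputs labelled PRMT1 and PRMT4 inhibitor and -0.44 and -0.27 in the footprints labelled PRMT1 and PRMT4 inhibitor. The membrane subunit ATP6V0A1 had the highest, at 0.16 and 0.89 in PRMT1-labelled input and footprints and 0.51 and 0.34 in PRMT4-labelled input and footprints. It held 22.1 and 16.3 TPM in the footprints labelled PRMT1 and PRMT4 inhibitor, against 12.8 TPM in DMSO. It was the only one of the 16 at least 1.5-fold higher in PRMT1-labelled footprints, beside 9.48% of all tested genes. ATP6AP1, an accessory membrane protein, was the only one in the PRMT4-labelled input (0.62), beside 5.85% of tested genes. Its 8.76 TPM there, against 7.17 TPM in DMSO, is under 1.5-fold without centring. ATP6AP1 lay near the filter, at 3.17 to 8.76 TPM over the libraries. None was 1.5-fold lower in any of the 4 pairs, beside 0.918% to 4.65% of tested genes, so these counts do not set the pump apart from the background.

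Split by sector after the values had been seen, the 8 cytosolic V1 subunits had a median of -0.25 in the PRMT4-labelled input, where the 8 V0 and accessory subunits had 0.40. In the PRMT1-labelled footprints the medians were -0.16 for V1, with 5 of 8 below 0, and 0.30 for V0 and accessory subunits, with 7 of 8 above 0. The exception was ATP6V0D1, a V0 subunit, at -0.37. Without centring the V0 medians came to 0.04 and 0.16 in these libraries and the V1 medians to -0.61 and -0.31, so no sign turned. In PRMT1-labelled input the medians were 0.06 for V1 and 0.11 for V0 and accessory subunits, and both were below 0 without centring, at -0.10 and -0.05. In PRMT4-labelled footprints they were 0.09 and -0.01, and that for V0 and accessory subunits came to 0.06 on rescaled TPM.

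**Figure D4:**
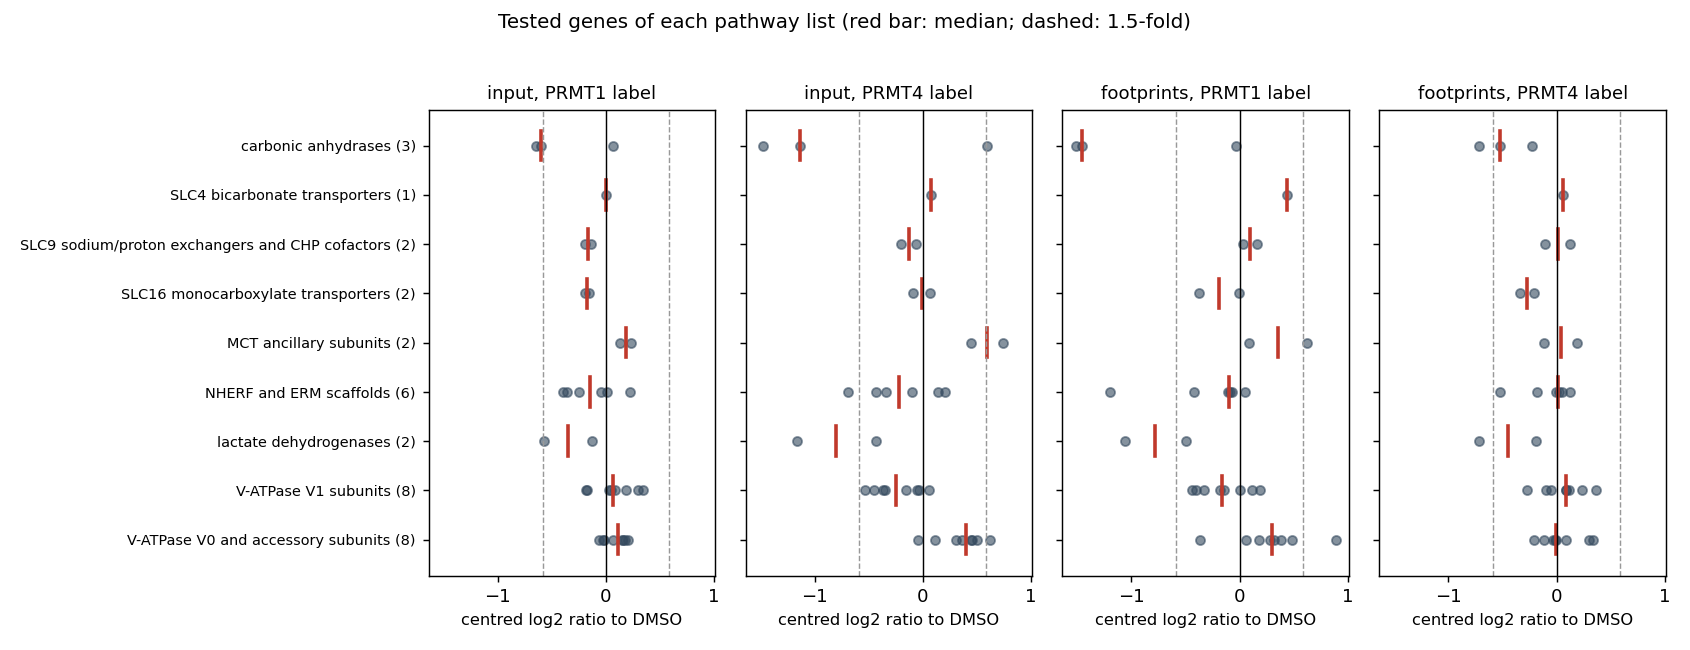
Centred log2 ratio to DMSO (horizontal axis) of each tested gene in the pathway lists, 1 panel per inhibitor library, with the number of genes in brackets, red bars for medians and dashed lines at 1.5-fold. CA2 and CA8 form the low pair of the carbonic anhydrases, NHERF2 the low point of the scaffolds at -1.20 in PRMT1-labelled footprints, and the V0 median lies to the right of the V1 median in the PRMT4-labelled input and the PRMT1-labelled footprints.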

How the data were processed

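The authors deposited 1 table of TPM values, 1 column for each of 6 libraries, printed to 2 decimals. Tools given in the submitters' processing notes, with no role or order, are RSEM 1.2.22, STAR 2.4.2a, Bowtie 1.1.2 and cutadapt 1.18, on GRCh37.p13. Monosomes came from sucrose gradients after RNase I digestion, per the labels' protocols; the preparation of input RNA is not stated there. Sequencing depth cannot be read from TPM, so counting error could not be estimated. As TPM values add up to one total, abundant RNAs lower the values of all others.

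Identifiers were matched to symbols with the version stripped (55725 of 60420, after dropping 41 Y pseudoautosomal copies at 0). Gene types, transcripts and start codons came from GENCODE release 29 on GRCh38, used for these alone. Ratios were computed with Python 3.11.15, numpy 2.4.6 and pandas 2.3.3, with a pseudocount of 1, a filter at a mean of 5 TPM and median centring. The calculation was checked on simulated data, the DMSO input copied to every library with small noise. Large changes were planted in genes of at least 20 TPM. This checks the arithmetic alone, as low levels and the variation between real libraries were not simulated. With 1 library per group no test was run. In each pathway list the highest and lowest gene by mean ratio and any gene past 2-fold were named; other genes were named after their values were seen. Members, lists and rules were chosen with earlier results of these data known. GC adjustment took the residuals of a quadratic fit on GC content and log2 length. Of the cell type markers checked, 1 is not reported here.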

Additional observations from a re-analysis of the deposited data

Results flagged for a closer look

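Members whose PRMT1-to-PRMT4 inhibitor contrast pointed in opposite directions in input and in footprints, at least 1.5-fold each way, were CA2 and BSG. NHERF1, SLC4A2 and SLC16A1 also had opposite signs, below that size. Over all 9040 tested genes the contrasts of the fractions were negatively correlated (Spearman rho = -0.40). The share of tested genes that meets this rule was not counted, so the pattern is not read as particular to CA2 and BSG. For CA2 the footprint ratio minus the input ratio was -1.88 on the log2 scale, with 0.89 in input and -0.98 in footprints. For BSG it was 1.34, with -0.59 in input and 0.75 in footprints. Each rests on 1 library per group, and the difference was not tested.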

How the results depend on the processing

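The number of the 6 genes at least 1.5-fold changed was recomputed under 8 other settings, of which the exchange of inhibitor inputs applied to the footprint-to-input ratio only, and 2 more chosen after seeing the data (GC and length adjustment, and rescaled TPM without centring). It moved beyond 1.5 times in 12 cases and not in 80. An exchange of genes, or a fall from 3 to 2, is not counted as a move. Without centring, NHERF2 (-0.71) replaced BSG (0.37) in the PRMT4-labelled input, where 26.3% of all features differed 1.5-fold, against 8.96% as reported. NHERF1 (0.87) likewise replaced BSG (-0.50) in loading under the PRMT4 inhibitor label, beside 29.1% against 12.9%. BSG also dropped out of the PRMT1-labelled footprints (0.48), beside 15.3% against 14.1%. In PRMT1-labelled input the number of genes came to 0, against 1, with a filter at 20 TPM and on rescaled TPM without centring, because CA2 crossed the bound. Of all features, 3.3% and 3.4% differed 1.5-fold at those settings, against 2.8% as reported. Between the inhibitor labels in input it came to 1, against 2, with a pseudocount of 5, without centring, with a filter at 1 TPM, with no filter and after GC and length adjustment, with BSG below the bound each time. The shares of all features were, in that order, 4.49%, 13.6%, 8.17%, 5.4% and 2.31%, against 8.15% as reported. For the mean of both labels in input it came to 3 without centring and with no filter, and to 2 with a filter at 1 TPM, against 1, as the NHERF genes passed. Over all features at those settings, 7.92%, 2.84% and 4.11% differed 1.5-fold without centring, with no filter and at 1 TPM, against 3.56% as reported. With exchanged inputs, the footprint-to-input ratio (translation efficiency) gave 1 gene, NHERF2, for PRMT1-labelled footprints and 0 for PRMT4-labelled ones, against 2 in each. The shares of all features were then 10.8% and 4.96%, against 12.3% and 12.9% as reported. No gene past 1.5-fold changed sign under any alternative. CA2 kept a ratio between -1.84 and -1.35 in PRMT4-labelled input and between -1.66 and -1.41 in PRMT1-labelled footprints, and NHERF2 one between -1.34 and -1.11 in these footprints. No paired analysis was possible because each group holds 1 library, so leaving out a replicate was not possible.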
